A study of Rattus norvegicus with 6 samples.

Results

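The genes described here are the amino acid transporters of the rat epididymis, taken as every gene whose symbol belongs to the solute carrier families Slc1, Slc3, Slc6, Slc7, Slc36, Slc38 or Slc43. The array annotation gave 61 such genes, each with 1 probe set, of 18166 genes tested. The epididymis is the coiled duct in which sperm mature after they leave the testis, and basal cells are the small epithelial cells that lie on its basement membrane. Basal cell and non-basal cell fractions, obtained by magnetic separation from the epididymides of Sprague-Dawley rats aged 48 days, were each measured on 3 Affymetrix RaGene 2.0 ST arrays. The study's design text names 3 rats, the labels give no genotype, treatment or separation antibody, and no label says which rat an array came from. Because nothing shows the arrays of a fraction to be separate animals, a p-value below covers the spread between arrays only, and that spread may be technical. Values are log2 RMA units, in which a difference of 1 is a doubling, and the number of arrays limits the precision. A gene was called higher or lower at an adjusted p under 0.05 in limma, with Benjamini-Hochberg adjustment over all 18166 genes.

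Solute carriers move amino acids across the plasma membrane and across the membranes of lysosomes. Slc1 and Slc38 members use the sodium gradient or exchange 1 amino acid for another, and some Slc36 members use protons. The light chains of the Slc7 family reach the membrane only when joined to a heavy chain of the Slc3 family, whereas the cationic transporters of Slc7 work without one. The Slc6 family also carries neurotransmitters, taurine and creatine. The luminal fluid of the epididymis is known to be rich in glutamate and taurine. The symbol rule also took in Slc7a6os, which is named for lying on the opposite strand of Slc7a6 and is not a transporter, Slc43a3, known in humans as a carrier of purine nucleobases, and 3 monoamine transporters.

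The fractions and arrays were checked first. All 8 basal epithelial markers (Krt14, Krt15, Tp63, Itga6, Itgb4, Lamb3, Jag2 and Cldn1) were higher in the basal fraction, 0 of 8 principal cell markers and 0 of 4 narrow and clear cell markers were called in limma, with 2 and 0 of them at an unadjusted p under 0.05. All 8 fibroblast markers, all 6 measured smooth muscle and pericyte markers and all 5 measured endothelial markers were lower. So were 5 of 7 lymphocyte markers and 1 of 8 macrophage and leukocyte markers. In bulk fractions such as these, fewer cells of a type and less RNA per cell cannot be told apart. Of the basal arrays, replicate 3 held the most fibroblast signal, with a mean over the 8 markers of 9.29 against 7.13 and 7.77 in the other basal arrays and 11.59 to 12.49 in the non-basal arrays. Non-basal replicate 1 lay apart from the other non-basal arrays, at 8.02 against 9.14 and 9.08 for the mean of 8 macrophage and leukocyte markers. Values without one or the other of these arrays are given below for many, but not all, of the named members whose differences moved.

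Of the 61 genes taken by the symbol rule, 4 were higher in the basal fraction, 6 were lower and 51 were not called. Without Slc7a6os, 4 of 60 were higher and 6 were lower. The higher genes were Slc38a2, Slc6a8, Slc7a1 and Slc6a9, and the lower genes were Slc43a3, Slc7a2, Slc36a4, Slc1a5, Slc38a10 and Slc43a1. These are 6.56% and 9.84% of the family members, beside 7.71% higher and 7.14% lower among all genes tested, so the shares lie near the background. The median log2 difference of the 61 genes was -0.074, against 0.0034 over all genes tested. The differences of 40 genes (65.6%) lay within 0.25 on the log2 scale, beside 63.9% of all genes. The arrays of the fractions did not overlap in 20 genes, 32.8% of the members, beside 32.9% of all genes tested.

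**Figure D1:**
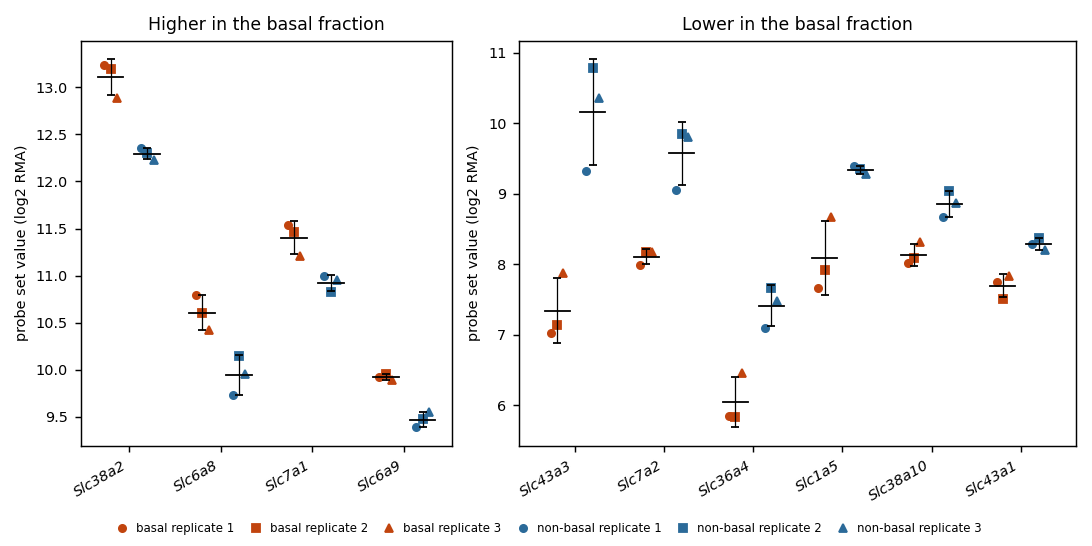
Probe set value (log2 RMA, vertical axis) of the 4 genes called higher and the 6 called lower in the basal fraction, with 1 point per array, horizontal bars at the mean of 3 arrays and error bars of 1 SD. In all 10 genes the basal and non-basal points do not overlap, and Slc43a3 has the widest gap, with a log2 difference of -2.81.

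The upstream sequences of 3 called genes are shown because they hold a match to a motif of the nutrient or stress response. They run 250 bases up to the transcription start, 5′ to 3′ on the strand of the gene, from RefSeq on the GRCr8 assembly, with the matches in capitals. The Slc38a2 stretch is chr7:129742620-129742869 on the minus strand and holds TGACNNNGC, the core of the antioxidant response element. The Slc7a1 stretch is chr12:11664238-11664487 on the plus strand and holds TGATGNAA, a form of the C/EBP-ATF response element bound by ATF4, and the antioxidant core on the opposite strand. The Slc43a1 stretch is chr3:90327072-90327321 on the plus strand and holds the E-box CACGTG.
Slc38a2: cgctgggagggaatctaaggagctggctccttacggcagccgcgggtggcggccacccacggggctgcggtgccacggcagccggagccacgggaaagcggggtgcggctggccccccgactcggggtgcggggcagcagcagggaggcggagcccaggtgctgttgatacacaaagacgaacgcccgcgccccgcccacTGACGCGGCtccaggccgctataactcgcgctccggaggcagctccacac
Slc7a1: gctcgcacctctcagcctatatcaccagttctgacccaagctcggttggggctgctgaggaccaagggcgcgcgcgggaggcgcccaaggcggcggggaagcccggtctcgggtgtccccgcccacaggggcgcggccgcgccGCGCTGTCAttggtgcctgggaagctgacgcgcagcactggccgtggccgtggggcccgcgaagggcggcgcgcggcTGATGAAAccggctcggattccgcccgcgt
Slc43a1: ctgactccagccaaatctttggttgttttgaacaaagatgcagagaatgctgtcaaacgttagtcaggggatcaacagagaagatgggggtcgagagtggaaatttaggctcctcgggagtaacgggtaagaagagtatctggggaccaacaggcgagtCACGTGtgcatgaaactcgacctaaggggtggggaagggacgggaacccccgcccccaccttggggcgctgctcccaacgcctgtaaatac
The Slc38a2 match began 50 bases before the start, the Slc7a1 matches 30 and 107 bases before it and the Slc43a1 match 91 bases before it. Promoters were found for 46 of the 61 genes, 6 of them called, and were searched on both strands over 300 bases, of which 50 lie past the start. TGATGNAA was found in 3 of the 46 (Slc1a4, Slc38a1 and Slc7a1), or 6.52%, beside 3.82% of 27457 promoters of that length. TGACNNNGC was found in 8 of the 46, or 17.4%, beside 12.2%, and CACGTG in 8 of the 46, or 17.4%, beside 6.65%. In Slc36a1 an E-box that began 13 bases before the start ran into an antioxidant core that began 9 bases before it. A match is a run of letters and was not tested as a binding site.

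Slc38a2, the sodium-coupled carrier of alanine, glutamine and other small neutral amino acids that cells are known to raise when amino acids are scarce, was the member with the largest positive difference. It read 13.24, 13.20 and 12.89 in basal replicates 1 to 3, against 12.35, 12.30 and 12.23 in the non-basal replicates. The fractions did not overlap, and the lowest basal value was that of replicate 3. The means were 13.11 ± 0.19 and 12.30 ± 0.060 (SD, n = 3 each), a log2 difference of 0.81 ± 0.11 (SE) or 1.76-fold, with a limma adjusted p of 0.00664. The call held with each of the 6 arrays left out in turn, with adjusted p between 0.00256 and 0.0445.

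Of the other 10 Slc38 genes 1 was lower and 9 were not called, beside 7.14% lower and 14.9% called in either direction among all genes tested. Slc38a10, a carrier of glutamine and other amino acids described in mouse brain, read 8.02, 8.09 and 8.31 in basal arrays, against 8.67, 9.03 and 8.87 in non-basal arrays. Every basal value was below every non-basal value, with a log2 difference of -0.72 ± 0.12 (limma adjusted p = 0.015). That call was lost without basal replicate 1 or 2 or non-basal replicate 2 or 3, with an adjusted p of up to 0.0757. Slc38a5, a glutamine and histidine carrier that also moves protons, read 10.80, 11.23 and 11.74 in basal arrays, against 12.32, 11.55 and 11.58 in non-basal arrays. Its fractions overlapped through basal replicate 3, and the difference of -0.56 ± 0.31 did not pass (adjusted p = 0.277). It was -0.31 without non-basal replicate 1 and -0.80 without basal replicate 3 (adjusted p = 0.141). Slc38a9, the lysosomal arginine sensor upstream of mTORC1, had separate fractions and a difference of -0.34 ± 0.12 (adjusted p = 0.112). With 1 array left out it was called lower only without basal replicate 3, and its adjusted p otherwise reached 0.29. Slc38a1, a glutamine carrier, had a difference of -0.28 ± 0.14 (adjusted p = 0.245), and Slc38a7, the lysosomal glutamine and asparagine exporter, -0.074 ± 0.063. Without non-basal replicate 1 these were -0.14 and -0.043. Slc38a4 was the same to the fifth decimal in all 3 non-basal arrays, at 6.26, and averaged 6.28 in basal arrays.

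The cationic transporters, which carry arginine, lysine and ornithine, gave calls in both directions. Slc7a1, the widely expressed arginine transporter, read 11.54, 11.46 and 11.20 in basal arrays, against 10.99, 10.83 and 10.95 in non-basal arrays. The fractions did not overlap, and the log2 difference was 0.47 ± 0.11 (1.39-fold, limma adjusted p = 0.0345). The call held only without basal replicate 3, and the adjusted p was 0.0550 to 0.130 without each of the other 5 arrays. Slc7a2, the inducible arginine transporter of liver, muscle and macrophages, read 7.98, 8.18 and 8.17 in basal arrays, against 9.06, 9.85 and 9.81 in non-basal arrays. The non-basal values were all higher, that of replicate 1 least so, and the difference was -1.46 ± 0.22 (2.75-fold lower, adjusted p = 0.0101). The adjusted p was 0.0573 at most when 1 array was left out, and losing any of basal replicates 1 and 2 and non-basal replicate 3 ended the call. Slc7a3, Slc7a4 and Slc7a14 were not called, with differences of 0.012, -0.29 and 0.041, or -0.029, -0.13 and -0.00039 without non-basal replicate 1.

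Both heavy chains and all 10 light chains were left without a call by limma. At an unadjusted p under 0.05 lay 0 of the 2 and 3 of the 10, beside 5443 of all 18166 genes tested. Slc3a2, the heavy chain of the widely expressed heteromers, read 11.85, 11.85 and 11.74 in basal arrays, against 11.86, 11.93 and 11.90 in non-basal arrays. The 6 values spanned a narrow range, although every basal value lay below every non-basal value. The difference of -0.085 had a 95% interval of -0.24 to 0.072 (adjusted p = 0.424). Slc7a5, its light chain for leucine and other large neutral amino acids, read 11.68, 11.44 and 11.51 in basal arrays, against 11.65, 11.49 and 11.50 in non-basal arrays. The fractions interleaved, with a difference of -0.0060 and an interval of -0.23 to 0.21 (adjusted p = 0.975). Slc7a8, the second light chain for large neutral amino acids, read 12.17, 12.20 and 12.11 in basal arrays, against 11.65, 12.17 and 12.14 in non-basal arrays. Only non-basal replicate 1 was low, and the difference was 0.17 ± 0.15 (adjusted p = 0.48), or 0.0053 without that array. Slc7a6, which exchanges cationic for neutral amino acids, had a difference of 0.018 with an interval of -0.26 to 0.29.

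**Figure D2:**
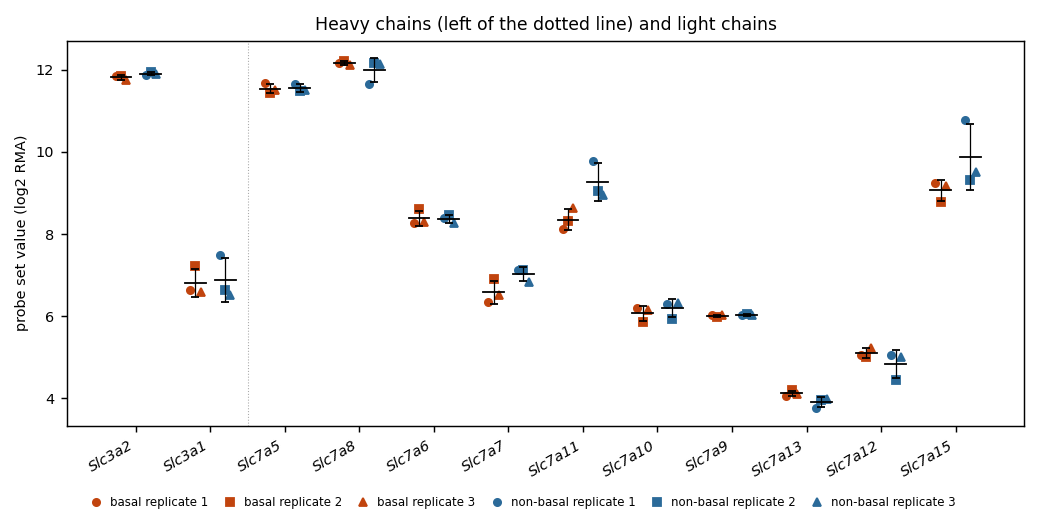
Probe set value (log2 RMA) of the 2 heavy chain genes and the 10 light chain genes in the 6 arrays, with bars at the mean of 3 arrays and error bars of 1 SD. Slc3a2, Slc7a5 and Slc7a6 differ little between the fractions, although the basal values of Slc3a2 all lie just below the non-basal ones. Slc7a11 and Slc7a15 lie lower in all 3 basal arrays without passing the test. Slc7a13 lies higher in all 3, at low values of 4.07 to 4.19 against 3.76 to 3.98, also without passing. Non-basal replicate 1 stands high for Slc7a11, Slc7a15 and Slc3a1.

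Among the light chains, Slc7a11, the cystine and glutamate exchanger that feeds glutathione synthesis, had the most negative difference. It read 8.12, 8.31 and 8.63 in basal arrays, against 9.79, 9.05 and 8.96 in non-basal arrays. The fractions did not overlap, yet the difference of -0.91 ± 0.25 missed the threshold (limma adjusted p = 0.0657). Quantile normalization, array weights and a filter at a group mean of 7 gave adjusted p of 0.0432, 0.018 and 0.0384, whereas the replicate block gave 0.132 and adjustment over all probe sets 0.0987. It was called in 0 of the 6 fits on 5 arrays, with adjusted p of 0.0622 to 0.204. Slc7a15, a light chain relative without a protein-coding human counterpart, read 9.24, 8.78 and 9.16 in basal arrays, against 10.79, 9.33 and 9.51 in non-basal arrays. Its fractions did not overlap, but its difference of -0.81 ± 0.40 was not called (adjusted p = 0.23) and was -0.36 without non-basal replicate 1. Slc7a7, which exports arginine from gut and kidney epithelia and is also found in macrophages, had a difference of -0.45 ± 0.17 (adjusted p = 0.135). Slc3a1, the heavy chain of cystine uptake in the kidney, overlapped between fractions at -0.077 ± 0.30, and without non-basal replicate 1, its highest array, the difference was 0.23. It was 0.031 without basal replicate 3.

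In the Slc1 family, Slc1a5, the sodium-dependent exchanger through which many cells take up glutamine, was lower in the basal fraction. It read 7.67, 7.91 and 8.68 in basal arrays, against 9.39, 9.35 and 9.29 in non-basal arrays. The non-basal arrays were close together, whereas basal replicate 3 lay nearest to them. The log2 difference was -1.26 ± 0.26 (2.39-fold lower, limma adjusted p = 0.0256). The adjusted p was 0.00209 without basal replicate 3, and the call was lost without any other array, up to 0.112. Slc1a4, the related exchanger of alanine, serine and cysteine, was not called, with a difference of 0.095 and an interval of -0.13 to 0.32, or 0.025 without non-basal replicate 1. None of the 5 glutamate and aspartate carriers passed in limma, with 0 at an unadjusted p under 0.05. Slc1a1, the epithelial glutamate and cysteine carrier, read 9.70, 9.98 and 10.98 in basal arrays, against 10.77, 10.14 and 10.15 in non-basal arrays. Basal replicate 3 was the highest of the 6 arrays, and the difference of -0.13 ± 0.36 changed sign without basal replicate 1 or non-basal replicate 1. Slc1a1 was at -0.51 without basal replicate 3 (adjusted p = 0.22). Slc1a3, the glial glutamate carrier, had a difference of -0.14 ± 0.18, or -0.34 without non-basal replicate 1 (adjusted p = 0.0925) and -0.066 without basal replicate 3.

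The Slc43 family held the largest difference of all members. Slc43a3 read 7.02, 7.14 and 7.88 in basal arrays, against 9.32, 10.79 and 10.36 in non-basal arrays. The fractions lay far apart, with the highest basal value in replicate 3 and the lowest non-basal value in replicate 1. The means were 7.34 ± 0.46 and 10.16 ± 0.75, a difference of -2.81 ± 0.42 (7.03-fold lower, limma adjusted p = 0.00946). The adjusted p reached 0.0598 without non-basal replicate 3, and the call was also lost without basal replicate 1 or 2. Slc43a1, a carrier of leucine and other branched-chain amino acids, read 7.76, 7.51 and 7.83 in basal arrays, against 8.29, 8.38 and 8.20 in non-basal arrays. It was separate between fractions at -0.59 ± 0.11 (adjusted p = 0.017), and the call was lost without basal replicate 1 or non-basal replicate 2 or 3. With the replicate number as a block, its adjusted p was 0.062. Slc43a2, which also carries large neutral amino acids, was separate in the other direction at 0.16 ± 0.096 but was not called (adjusted p = 0.326), and its difference was 0.061 without non-basal replicate 1.

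Of the Slc36 genes, Slc36a4, which takes up proline and tryptophan, read 5.84, 5.84 and 6.47 in basal arrays, against 7.09, 7.67 and 7.48 in non-basal arrays. All basal values were lower, and the difference was -1.36 ± 0.22 (2.57-fold lower, limma adjusted p = 0.0129). The call was lost without basal replicate 1 or 2 or non-basal replicate 2 or 3, up to an adjusted p of 0.0718. The other 3 were not called. Slc36a2, a carrier of glycine and proline, read 7.54, 7.79 and 8.10 in basal arrays, against 9.17, 7.42 and 7.75 in non-basal arrays. Its difference of -0.30 ± 0.46 rested on non-basal replicate 1 and was 0.23 without that array. Slc36a1, found on lysosomes and at the apical border of gut epithelium, had a difference of -0.20 ± 0.32, which was -0.47 when basal replicate 3 was dropped. It was 0.037 when non-basal replicate 1 was dropped, and 0.047 for basal replicate 1.

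**Figure D3:**
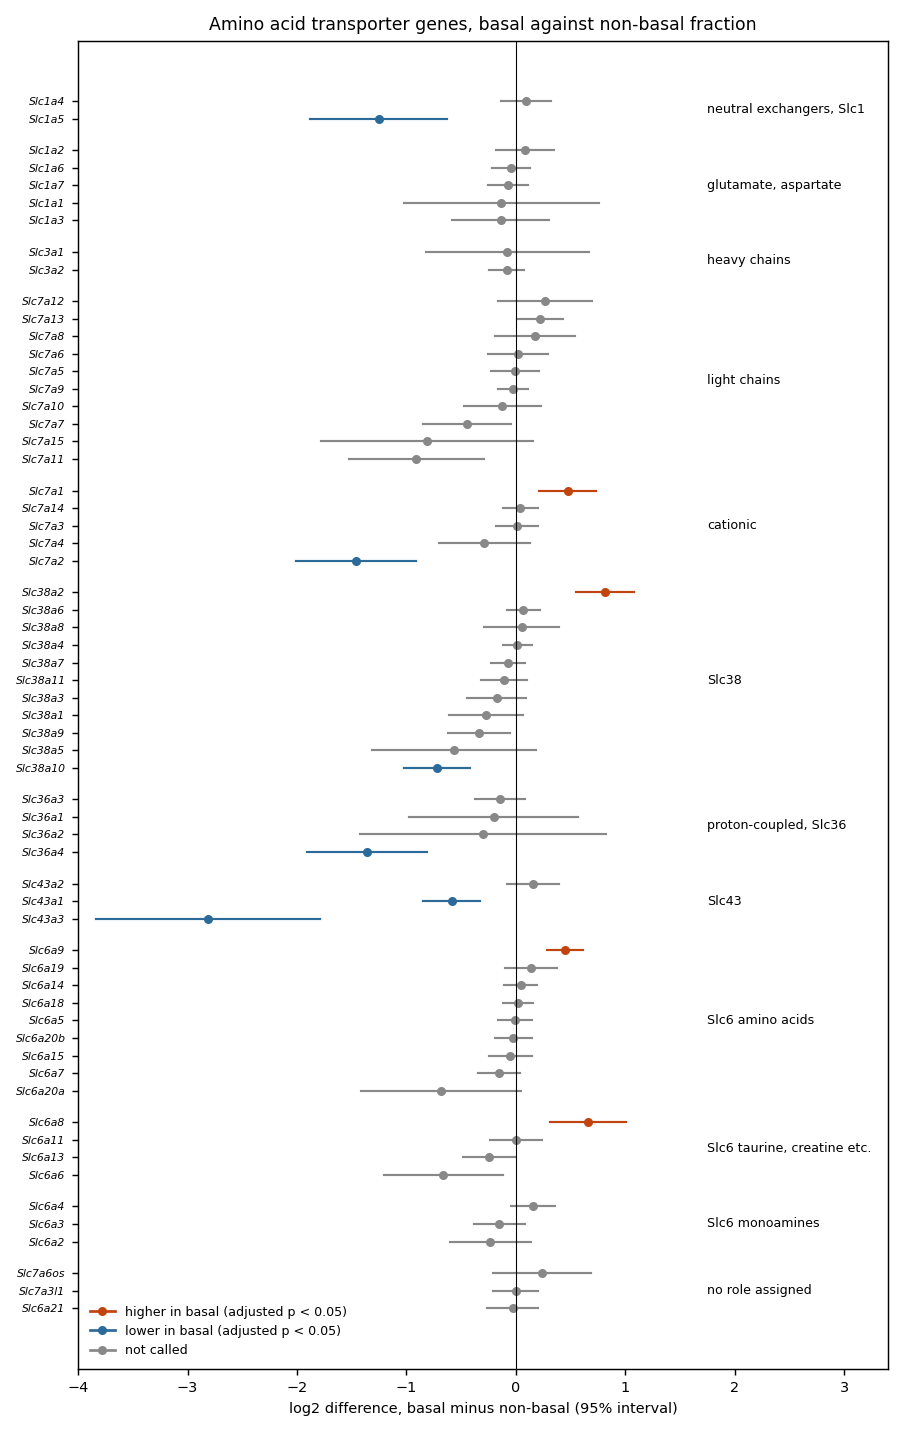
Log2 difference, basal minus non-basal (horizontal axis), of all 61 genes with 95% intervals from limma, grouped by role, and coloured by call. The 4 higher genes lie between 0.45 and 0.81 and the 6 lower genes between -2.81 and -0.59, while most other genes lie close to 0.

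In the Slc6 family, 2 of 17 genes were higher and 0 were lower by limma, with 4 of 17 at an unadjusted p under 0.05, beside 5443 of all 18166 genes tested. Slc6a8, the creatine transporter, read 10.79, 10.60 and 10.42 in basal arrays, against 9.73, 10.15 and 9.96 in non-basal arrays. The fractions were separate, with a log2 difference of 0.66 ± 0.14 (1.58-fold, limma adjusted p = 0.0313). The call held only without basal replicate 3, with an adjusted p between 0.0503 and 0.117 without each other array. Slc6a9, a glycine transporter best known from glia, read 9.92, 9.95 and 9.89 in basal arrays, against 9.39, 9.47 and 9.55 in non-basal arrays. Its values were tight in both fractions, and the difference was 0.45 ± 0.068 (1.37-fold, adjusted p = 0.00949). The call held with each of the 6 arrays left out, the highest adjusted p being 0.049. With the replicate number as a block, Slc38a2 and Slc6a9 were the only higher genes, and Slc7a1 and Slc6a8 had adjusted p of 0.071 and 0.0771. When p-values were adjusted over every probe set, named or not, their adjusted p were 0.0611 and 0.054.

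Slc6a6, the taurine transporter, read 7.03, 7.22 and 7.14 in basal arrays, against 7.28, 8.02 and 8.08 in non-basal arrays. Non-basal replicate 1 lay close to the basal values, and the difference of -0.66 ± 0.22 was not called (limma adjusted p = 0.109) but had an adjusted p of 0.00459 without that array. Slc6a20a, a proline carrier, had a difference of -0.68 ± 0.30 (adjusted p = 0.192), or -0.38 without non-basal replicate 1 and -0.85 without basal replicate 3. Slc6a13, a carrier of GABA and taurine, had one of -0.25 ± 0.098 (adjusted p = 0.155), or -0.16 without non-basal replicate 1. The 3 monoamine transporters were not called, with Slc6a2, of noradrenaline, at -0.23 ± 0.15 and Slc6a4, of serotonin, at 0.15 ± 0.082. The remaining Slc6 genes differed by -0.16 to 0.14.

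**Figure D4:**
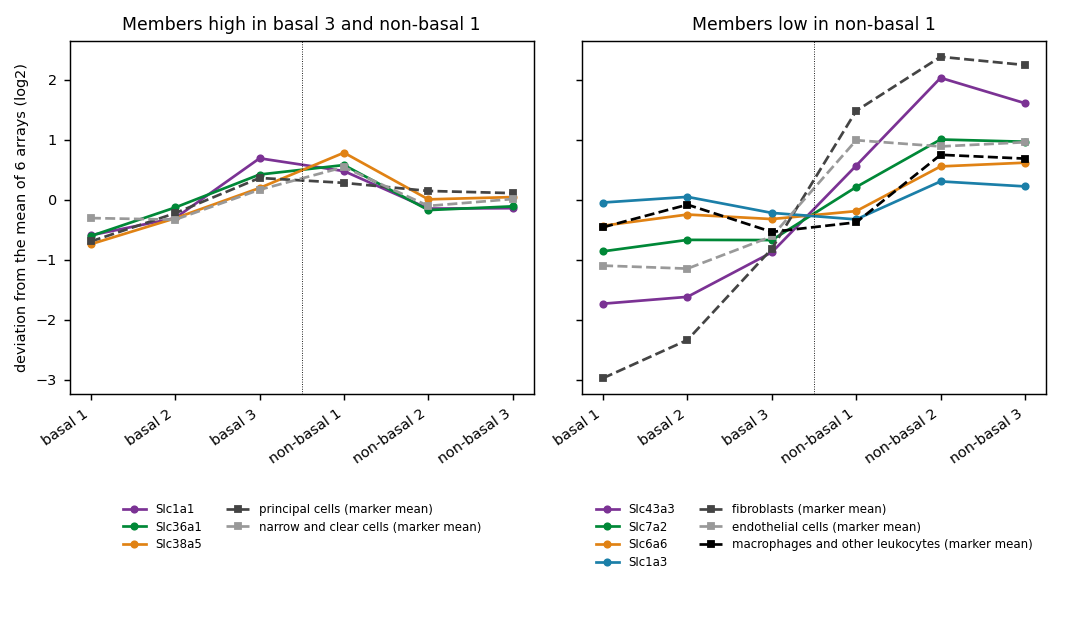
Deviation from the mean of the 6 arrays (log2, vertical axis) of 3 members that were high in basal replicate 3 and non-basal replicate 1 (left) and 4 that were low in non-basal replicate 1 (right), beside the mean of marker genes (dashed), with lines joining the values of a gene and no order among replicates. High and low here mean against the other arrays of the same fraction, not against the mean of the 6 arrays. The genes were chosen for standing apart in this way, so that pattern follows from the choice. In the right panel Slc43a3 and Slc7a2 are highest in non-basal replicate 2 and Slc6a6 in non-basal replicate 3, while Slc1a3 is lowest in non-basal replicate 1.

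Some members differed between arrays of one fraction. In non-basal replicate 1, 8 members exceeded both other non-basal arrays by at least 0.5 on the log2 scale (Slc1a1, Slc36a1, Slc36a2, Slc38a5, Slc3a1, Slc6a20a, Slc7a11 and Slc7a15), 13.1% beside 3.33% of all genes, a limit chosen after the values were seen. In the same array 4 members fell short of both others by as much (Slc1a3, Slc43a3, Slc6a6 and Slc7a2), 6.56% beside 4.27%. In basal replicate 3, 6 members exceeded both other basal arrays by that margin (Slc1a1, Slc1a5, Slc36a1, Slc36a4, Slc38a5 and Slc43a3), 9.84% beside 2.99%. The mean of the 8 principal cell markers was 10.88, 11.35 and 11.94 in the basal arrays, against 11.85, 11.72 and 11.68 in the non-basal arrays. That of the 4 narrow and clear cell markers was 9.46, 9.43 and 9.93 in the basal arrays, against 10.31, 9.66 and 9.77 in the non-basal arrays. These marker values are set beside the 8 members as a description, and their part in them was not tested.

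All measured fibroblast, endothelial, and smooth muscle and pericyte markers were lower in the basal fraction, as were 5 of 7 lymphocyte markers. The lower genes share that direction by the definition of their call. The mean of the 8 fibroblast markers ranged from 7.13 to 9.29 in basal arrays, against 11.59 to 12.49 in non-basal arrays, and that of the 5 endothelial markers from 7.01 to 7.55, against 9.05 to 9.15. The 6 smooth muscle and pericyte markers ranged from 8.38 to 9.18 in mean, against 10.81 to 10.97. Those of the 7 lymphocyte markers ranged from 5.88 to 6.49, against 7.93 to 8.57. The 8 macrophage and leukocyte markers ranged from 7.86 to 8.31, against 8.02 to 9.14. Their means overlapped between the fractions, and 1 of the 8 was called lower. The mean of the 8 principal cell markers ranged from 10.88 to 11.94, against 11.68 to 11.85, and overlapped through basal replicate 3. No marker list was at 0, since array values have no zero. The part of these cells in the lower values of Slc43a3, Slc7a2, Slc36a4, Slc1a5, Slc38a10 and Slc43a1 was not tested. The mean of the 8 basal epithelial markers ranged from 10.81 to 11.15 in basal arrays, against 7.60 to 8.53 in non-basal arrays, and their part in the higher values of Slc38a2, Slc6a8, Slc7a1 and Slc6a9 was likewise not tested.

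Genes that make or use the transported amino acids were examined as 4 further lists, with the shares of all genes above (14.9% called in either direction) as background. Of 24 genes of the amino acid response and of mTORC1 sensing, 1 was higher and 1 lower. Eif2ak4, the kinase that senses uncharged tRNA, averaged 8.65 ± 0.071 in basal and 8.30 ± 0.070 in non-basal arrays, a difference of 0.35 ± 0.072 (limma adjusted p = 0.0269). Mthfd2, the mitochondrial folate enzyme, averaged 9.65 ± 0.017 and 10.26 ± 0.16, a difference of -0.61 ± 0.092 (adjusted p = 0.00953). The response factor Atf4 and its target Asns, asparagine synthetase, were not called, at 0.15 (adjusted p = 0.39) and 0.18 (adjusted p = 0.471).

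Among 14 genes of cysteine and glutathione metabolism, 4 were higher and 2 lower. Csad, the decarboxylase of taurine synthesis, averaged 10.00 ± 0.12 in basal and 8.93 ± 0.076 in non-basal arrays, a difference of 1.07 ± 0.085 (2.11-fold, limma adjusted p = 0.0022). Gclc, the catalytic subunit of glutamate-cysteine ligase, the first enzyme of glutathione synthesis, was higher by 0.77 ± 0.070 (adjusted p = 0.00266). Its partner Gclm and the next enzyme, glutathione synthetase (Gss), named after their values were seen, were higher by 0.69 and 0.67 (adjusted p = 0.0147 and 0.0136). The 2 lower genes were the membrane peptidases Dpep1, which splits cysteinyl-glycine, at -3.65 ± 0.46 (adjusted p = 0.00572), and Anpep, also named after its value was seen, at -2.13 (adjusted p = 0.0178). The cystine carrier Slc7a11 of the same route had the uncalled difference of -0.91.

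Of 24 genes of glutamine, arginine, polyamine and creatine metabolism, 2 were higher and 3 lower. Sat1, the polyamine acetyltransferase, was higher by 0.63 ± 0.074 (limma adjusted p = 0.0048). Gatm, the first enzyme of creatine synthesis, averaged 6.44 ± 0.34 in basal and 7.64 ± 0.25 in non-basal arrays, a difference of -1.20 ± 0.20 (adjusted p = 0.0145), opposite in sign to that of the creatine carrier Slc6a8. Got1, the cytosolic aspartate aminotransferase, was lower at -0.996 ± 0.18 (adjusted p = 0.016). Ass1, the arginine-making argininosuccinate synthase, was higher by 0.96 (adjusted p = 0.0426) and the endothelial nitric oxide synthase Nos3 was lower at -0.92 (adjusted p = 0.0178), both named after their values were seen. Of 20 amino acid and peptide carriers of other families, 0 were higher and 3 were lower by limma, with 5 at an unadjusted p under 0.05. They were Mfsd12, the lysosomal cysteine importer, at -0.68 ± 0.11 (adjusted p = 0.0132), the mitochondrial aspartate-glutamate carrier Slc25a12 at -0.70 ± 0.14 (adjusted p = 0.0235) and the mitochondrial glutamate carrier Slc25a22 at -0.54 ± 0.12 (adjusted p = 0.0336).

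**Figure D5:**
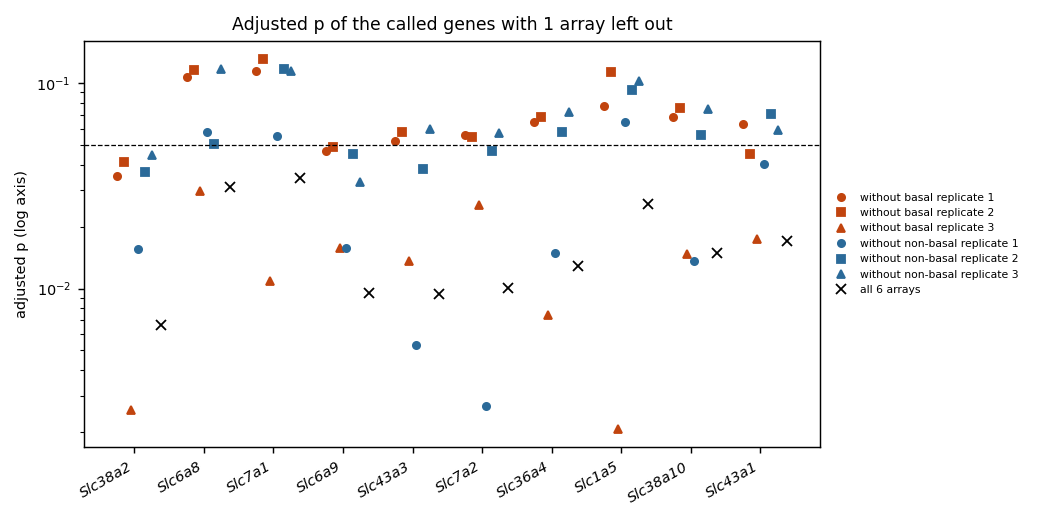
Adjusted p from limma (log axis) of the 10 called genes with all 6 arrays (cross) and with 1 array dropped (basal replicates in red, non-basal replicates in blue), with the threshold of 0.05 as a dashed line. Slc38a2 and Slc6a9 stay under the line in all 6 fits, while Slc6a8, Slc7a1 and Slc1a5 do so in 1.

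Leaving out arrays changed the counts. Across the 6 fits on 5 arrays, 2 to 4 members were higher and 0 to 7 lower, and the count of 0 lower came when basal replicate 1 or non-basal replicate 3 was dropped. The share of all genes called lower without those arrays was also smaller, at 3.47% and 2.98%, against 7.14% with all arrays. Without basal replicate 3 and non-basal replicate 1 together, chosen after the data were seen, 5 members were higher and 9 lower, beside 13.8% and 11.7% of all genes. Those included the 10 called genes, with Slc7a6os added to the higher and Slc38a9, Slc6a6 and Slc7a11 to the lower.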

How the data were processed

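Total RNA of 3 basal and 3 non-basal fractions was hybridised to 1 array each. The submitters' processing notes name RMA and Affymetrix Expression Console, and the deposited table holds the resulting log2 values per probe set; software version, probe set library and genome build are not given in the sources used here. RMA equalises the array distributions, so a shift common to most genes would be removed. Array medians were 6.63 to 6.70. GEO's platform annotation gave the gene names (18511 of 36685 with 1 symbol, 575 with several, 17599 unnamed), keeping for each gene the probe set with the highest mean. All 61 members matched the RefSeq gene table by Entrez identifier with 0 symbols changed. Each member had 1 probe set, and dim probe sets were kept.

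Differences (basal minus non-basal) were fitted in R 4.3.3 with limma 3.58.1 (lmFit, eBayes), two-sided, without a block. Error values after differences are moderated SEs. Named genes were all called members, in each role group the member with the highest mean and the uncalled one with the largest difference, and in each other list up to 3 called genes with the smallest p; further members are named to complete a group. The members, lists and rules were chosen with earlier results of these data known. Alternatives were a replicate block, quantile normalization, median centring, filters at a group mean of 5 or 7, a trended robust spread, the mean of all probe sets, array weights, all probe sets tested, thresholds of 0.1 and 0.01, and each array left out.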

Additional observations from a re-analysis of the deposited data

How the results depend on the processing

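The counts of 4 higher and 6 lower members were the same genes under median centring, the filter at a group mean of 5, the trended robust spread and the mean of all probe sets. With the replicate number as a block 2 were higher and 5 lower, and with all probe sets tested 2 and 6. At a threshold of 0.01 they were 2 and 1. The lower count was 7 under quantile normalization, the filter at 7 and the threshold of 0.1, each time with Slc7a11 added, and 9 under array weights. With 1 array dropped, 2 to 4 were higher and 0 to 7 lower, and the median difference ranged from -0.075 to -0.037. The median was -0.089 after centring, -0.24 after the filter at 7, -0.062 with array weights and -0.050 without basal replicate 3 and non-basal replicate 1 together. Over all 61 members, the sign changed with 1 array dropped in 0 of the 10 called genes and in 15 of the 51 uncalled ones, 12 of them with a difference under 0.1 in size, Slc3a1 included. The other 3 were the following: Slc1a1 ranged from -0.51 to 0.13, Slc36a1 from -0.47 to 0.047 and Slc36a2 from -0.65 to 0.23, and without both of the arrays just named Slc36a2 was at 0.083 and Slc1a4 at -0.0052. The same-numbered arrays of the fractions correlated in their deviations at only 0.031, 0.038 and 0.028. Every array correlated best with its own number, but the gaps could be very small. Non-basal replicate 3 was at 0.0278 with basal replicate 3 and at 0.0270 with basal replicate 1. Such gaps cannot decide whether the arrays are paired, and the labels do not say. Apart from what the filters and left-out arrays do by construction, the causes of these changes were not tested.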
